A study of Mus musculus with 12 samples.

Results

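The tubulin isotypes analysed here are 10 genes, the 7 β-tubulins Tubb5, Tubb4b, Tubb6, Tubb2a, Tubb2b, Tubb3 and Tubb4a and the 3 α-tubulins Tuba1a, Tuba1b and Tuba1c, of 54352 gene symbols with a count. They were listed because Tubb4a was among the genes most above descending fibroblasts in ascending control fibroblasts, so that contrast is described here for every isotype and tested for none. RNA was measured in 12 libraries of primary fibroblasts of the adventitia, the outer connective tissue coat of the vessel. The cells came from WT C57Bl/6 mice of 14 weeks by the sample labels and were grown out of pieces of adventitia, which was pulled off the media by hand, so each culture holds whatever cells grew out. The 4 groups of 3 libraries were descending control, descending TGFβ, ascending control (ascending aorta with the aortic root) and ascending TGFβ. TGFβ cultures received 10 ng/mL for 48 h and controls the solvent for as long. Whether replicates came from separate animals is not stated, and the p-values then measure only the spread between these samples, which may be technical.

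Microtubules are hollow polymers of paired α- and β-tubulin, and they carry vesicles, form the mitotic spindle and set the shape of migrating cells. Several genes encode near-identical α and β chains, called isotypes, which differ most in the acidic tail at the end of the chain, where glutamate chains are added and many motor and associated proteins bind. Tubb5 is the broadly expressed β isotype, Tubb4b is broadly expressed and abundant in cilia, Tubb6 is found in many non-neural tissues, and Tubb2a, Tubb2b and Tubb3 are best known from neurons. Tubb4a is best known from the brain, where neurons and oligodendrocytes use it. Tuba1a is the main α isotype of young neurons, and Tuba1b and Tuba1c are broadly expressed.

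The stretch of the genes that sets the isotypes apart is the end of the coding sequence, shown here because it tells Tubb4a from the other β isotypes and shows which isotypes short reads can hardly separate. The last 60 coding bases before the stop codon of 6 β isotypes were read on the coding strand from GENCODE vM21 and GRCm38. Capitals mark bases that differ from, or are not present in, Tubb4a in a pairwise alignment of the coding sequences.
Tubb4a (chr17:57080693-57080752, minus strand): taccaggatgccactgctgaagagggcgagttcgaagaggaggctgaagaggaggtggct
Tubb4b (chr2:25222311-25222370, minus strand): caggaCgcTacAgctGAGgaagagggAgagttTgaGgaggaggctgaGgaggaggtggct
Tubb5 (chr17:35834985-35835044, minus strand): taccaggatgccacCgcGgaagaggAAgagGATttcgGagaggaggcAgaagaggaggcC
Tubb2a (chr13:34074471-34074530, minus strand): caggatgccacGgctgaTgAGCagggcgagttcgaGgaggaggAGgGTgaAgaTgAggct
Tubb2b (chr13:34127474-34127533, minus strand): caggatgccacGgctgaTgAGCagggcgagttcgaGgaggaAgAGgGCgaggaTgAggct
Tubb3 (chr8:123421620-123421679, plus strand): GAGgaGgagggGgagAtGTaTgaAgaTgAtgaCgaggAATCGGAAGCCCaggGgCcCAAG

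On GRCm38, Tubb4a spans chr17:57080066-57087782, Tubb2a (chr13:34074274-34078007) and Tubb2b (chr13:34126748-34130466) lie on the same strand of the same chromosome, and the 3 α isotypes lie together on chromosome 15. Tubb4b and Tubb5 differed from Tubb4a at 10 of these bases, Tubb2a and Tubb2b at 13 and Tubb3 at 31. Tubb2a and Tubb2b were 96.5% identical over the coding sequence, and the α isotypes 97.1 to 98.3%. Tubb4a was 83.2% identical to Tubb4b and 83.9% to Tubb5. Of the 50-base stretches in the exons of Tubb4a, 0.18% occurred in another gene, and none of those of Tubb3 and Tubb6 did. This share was 0.0892% for Tubb5, 41.3% for Tubb4b (mostly with the pseudogene Tubb4b-ps1), 49.6% for Tubb2a, 36.9% for Tubb2b, 75.5% for Tuba1a, 75.1% for Tuba1b and 52.7% for Tuba1c. How reads that match several genes were counted is not given in the sources used here, so the split between Tubb2a and Tubb2b, between the 3 α isotypes, and the level of Tubb4b are uncertain, while Tubb4a, Tubb3, Tubb5 and Tubb6 can be read singly. Exons of Tuba1a and Tuba1b also overlap the annotated gene Gm49450 on their strand, which had 0 to 11 counts, and Tubb4b overlaps Fam166a on the opposite strand.

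The libraries held 16250126 to 23892943 counted reads. Levels are given as normalized CPM, counts relative to the library total and scaled by edgeR's TMM factors, and a count of 3, the floor, corresponded to 0.117 to 0.207 normalized CPM. Floors cover counting error only. All 9 fibroblast markers (among them Pdgfra, Col1a1, Dcn and Pi16) were above the floor, with sums of 11890 to 25546 normalized CPM per library, and all 10 isotypes passed the filter on low counts in every comparison. The descending control replicate 3 stood apart from the other 11 libraries. It had counts on 13031 genes against 19337 to 20931, 11% of its counts were mitochondrial against 0.703 to 1.03%, and its mean Pearson's r with its group on log2 CPM was 0.874 against 0.989 to 0.992 in the other 3 groups. Fold changes, counts of calls and shares that use it are given with and without it.

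Tubb4a had the widest gap between the sites. Its counts were 2056, 1721 and 1777 in ascending control, 928, 898 and 756 with TGFβ, 101, 62 and 51 in descending control and 30, 52 and 30 with TGFβ. In normalized CPM these were 89.3, 85.9 and 86.5 in ascending control, 48.4, 42.5 and 36.8 with TGFβ, 3.93, 2.69 and 3.52 in descending control and 1.53, 2.82 and 1.42 with TGFβ. The lowest ascending library lay above every descending library, and within the ascending site every TGFβ library lay below every control library. All descending libraries were above the floor, so the gene was low there and not absent from the reads. In bulk RNA, fewer cells that express a gene and less RNA per cell cannot be told apart.

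**Figure D1:**
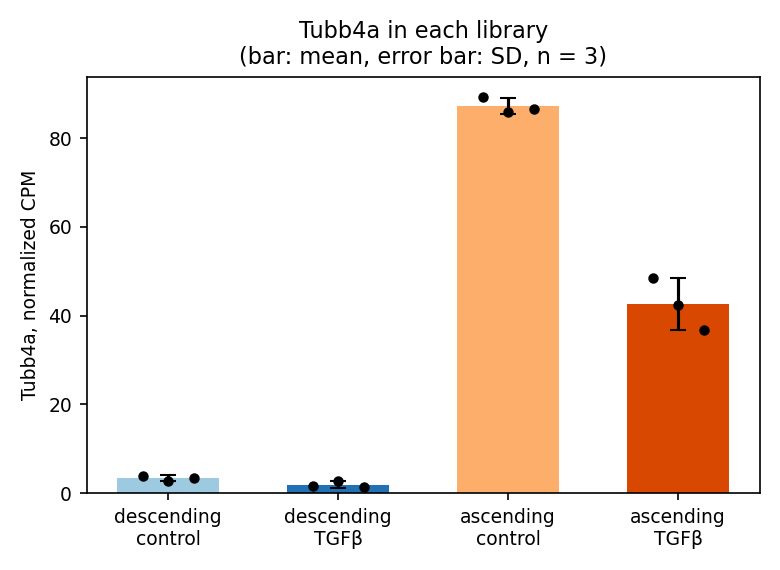
Normalized CPM of Tubb4a (y axis, linear from 0) in the 4 groups of site and treatment (x axis), with points for the libraries, bars for the mean and error bars for the SD (n = 3). The ascending control mean is 87.3, the ascending TGFβ mean 42.6, and the descending means are 3.38 in control and 1.92 in TGFβ.

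In control fibroblasts, the contrast that chose the gene, mean Tubb4a was 87.3 ± 1.81 normalized CPM in ascending and 3.38 ± 0.632 in descending libraries (SD, n = 3), a ratio of 25.8, or 26.4 without descending control replicate 3. The TGFβ libraries took no part in that choice. Under TGFβ the means were 42.6 ± 5.82 and 1.92 ± 0.778 (SD, n = 3), a ratio of 22.2. The log2 fold change there was 4.49 (SE 0.14), with an adjusted p of 1.77e-20 by edgeR's quasi-likelihood test. Every one of the 3 ascending libraries lay above every descending library, and the 6 TGFβ cultures come from the same study and sites as the controls.

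With TGFβ, mean Tubb4a was lower by a ratio of 2.05 in ascending fibroblasts (log2 fold change -1.04, SE 0.07) and by 1.76 in descending fibroblasts (1.72 without control replicate 3), where the 2 groups overlapped. These ratios rest on the control libraries that chose the gene and were not tested. On a scale per length, Tubb4a stood at 39.2 CPM per kb of exon in ascending control, above Tuba1c at 25.8 and below Tubb2b at 65.4. It was the lowest of the 10 isotypes in the other 3 groups, at 19.1 in ascending TGFβ, 1.52 in descending control and 0.863 in descending TGFβ.

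The 5 genes whose levels followed Tubb4a most closely over the 12 libraries, of 14636 genes ranked by Pearson's r on log2 CPM, were Adamtsl3 (r = 0.99), Fhdc1 (0.987), Ptprd (0.987), Gm34030 (0.987) and Pcolce2 (0.986). Without descending control replicate 3 their r was 0.991, 0.992, 0.986, 0.991 and 0.986 in the same order. Adamtsl3 encodes a secreted matrix protein, Ptprd a receptor tyrosine phosphatase and Pcolce2 an enhancer of procollagen processing. Fhdc1 encodes a formin that binds actin and microtubules. Mean Fhdc1 was 44.6 and 38.7 normalized CPM in descending control and TGFβ, and 105 and 84.9 in ascending control and TGFβ. These r values describe 12 libraries that share 2 sites and 2 treatments, and carry no p.

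Some markers of neurons and glia, the cell types that use Tubb4a in the brain, differed by site. Of 12 Schwann cell and oligodendrocyte markers, Olig1 was at or under the floor in every library. The summed level of the 12 was 29.8 to 36.9 normalized CPM in ascending control, 21.3 to 24.1 with TGFβ, 20.9 to 34.9 in descending control (20.9 to 22.2 without replicate 3) and 14.2 to 16.7 with TGFβ. S100b, a calcium-binding protein of glia, overlapped between the sites, with 286 to 366 counts in ascending and 324 to 415 in descending control and with 176 to 216 and 196 to 228 under TGFβ. Cdh19, an adhesion protein of this lineage, had 81 to 99 and 107 to 147 counts in ascending and descending control, and 53 to 64 and 34 to 52 under TGFβ. Its normalized CPM in control overlapped, at 3.94 to 4.39 in ascending and 4.16, 4.73 and, in replicate 3, 10.1 in descending libraries. Sox10, the transcription factor that defines this lineage, had 0 counts in all 6 descending libraries, 42 to 50 in ascending control and 36 to 59 in ascending TGFβ. Foxd3, a neural crest factor, had 0 in the descending libraries, 19 to 36 in ascending control and 8 to 28 in ascending TGFβ. Of 13 neuron markers, Rbfox3 and Elavl3 had 0 counts everywhere, and Nefl and Th did not pass the floor. The 13 summed to 86.4 to 95.5 normalized CPM in ascending control, 117 to 127 with TGFβ, 27.8 to 57.1 in descending control (51.9 to 57.1 without replicate 3) and 86.8 to 98.3 with TGFβ. Most of this was Uchl1, a ubiquitin hydrolase of neurons, at 76.8 to 84.0 in ascending control and at 48.3, 52.5 and, in replicate 3, 18.8 in descending control. Isl1, a factor of motor and sensory neurons and of the second heart field, had 0 to 7 counts in descending, 123 to 186 in ascending control and 76 to 85 in ascending TGFβ libraries. Other neuron markers went the other way under TGFβ. Snap25 had 14, 13 and 7 counts in descending and 1, 1 and 0 in ascending TGFβ libraries. Gap43, at 35, 26 and 27 against 26, 16 and 24, and Nefm, at 7, 14 and 8 against 11, 2 and 1, were mostly lower in ascending libraries.

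Markers of other cells differed by site as well. Of 6 mesothelial markers, Wt1 and Muc16 did not pass the floor, and the summed level was 33.5 to 44.2 normalized CPM in ascending control, 19.7 to 26.5 with TGFβ, 6.89 to 13.0 in descending control (12.9 to 13.0 without replicate 3) and 12.2 to 13.9 with TGFβ. Upk3b, a membrane protein of mesothelium, had 804, 581 and 761 counts in ascending control, 437, 310 and 360 with TGFβ and 0 to 37 in the 6 descending libraries. Krt19, a keratin of mesothelium, instead had 66 to 96 counts in ascending and 100 to 303 in descending libraries. The cardiac troponin Tnnt2 had 116 to 159 counts in ascending control, 65 to 76 with TGFβ and 4 to 30 in descending libraries, and the 6 cardiomyocyte markers, with Myh6 at 0, summed to 6.04 to 7.98 normalized CPM in ascending control, 3.36 to 3.9 with TGFβ and at most 1.84 in descending libraries. Most of the ascending control sum was Tnnt2, at 5.79 to 7.74 normalized CPM. Actc1 instead had 6, 11 and 0 counts in descending and 1, 1 and 0 in ascending control, and Nppa, Ttn and Myl7 had at most 7 in any library. The 6 macrophage markers summed to 54.4 to 357 in ascending control, 29.6 to 42.3 with TGFβ, 25.5 to 47.2 in descending control (39.9 to 47.2 without replicate 3) and 14.0 to 27.0 with TGFβ. The highest was ascending control replicate 2, with 5836 counts of Lyz2 against 894 and 870 in its group, while its Tubb4a level was the lowest of that group at 85.9. The part of any of these cells in the Tubb4a level was not tested.

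Per length, Tuba1a was the most abundant isotype in every group, at 545 CPM per kb in ascending control, 682 with TGFβ, 584 in descending control and 678 with TGFβ. Tubb5 came next, at 392, 468, 325 (382 without replicate 3) and 392 in the same order, although its range overlapped that of Tuba1b in both descending groups. In ascending control the order was Tuba1a, Tubb5, Tuba1b, Tubb4b, Tubb2a, Tubb3, Tubb6, Tubb2b, Tubb4a and Tuba1c, and no neighbours overlapped. In ascending TGFβ, Tubb6 moved from the seventh to the fourth place at 162 CPM per kb, where it overlapped Tubb2a at 158, which overlapped Tubb4b at 157. In descending TGFβ, Tubb6 at 148 and Tubb2a at 141 overlapped as well, and from Tubb4b at 114 downward no neighbours did. In descending control, the ranges of neighbours overlapped from Tubb5 down to Tubb3, since replicate 3 was low in most isotypes.

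**Figure D2:**
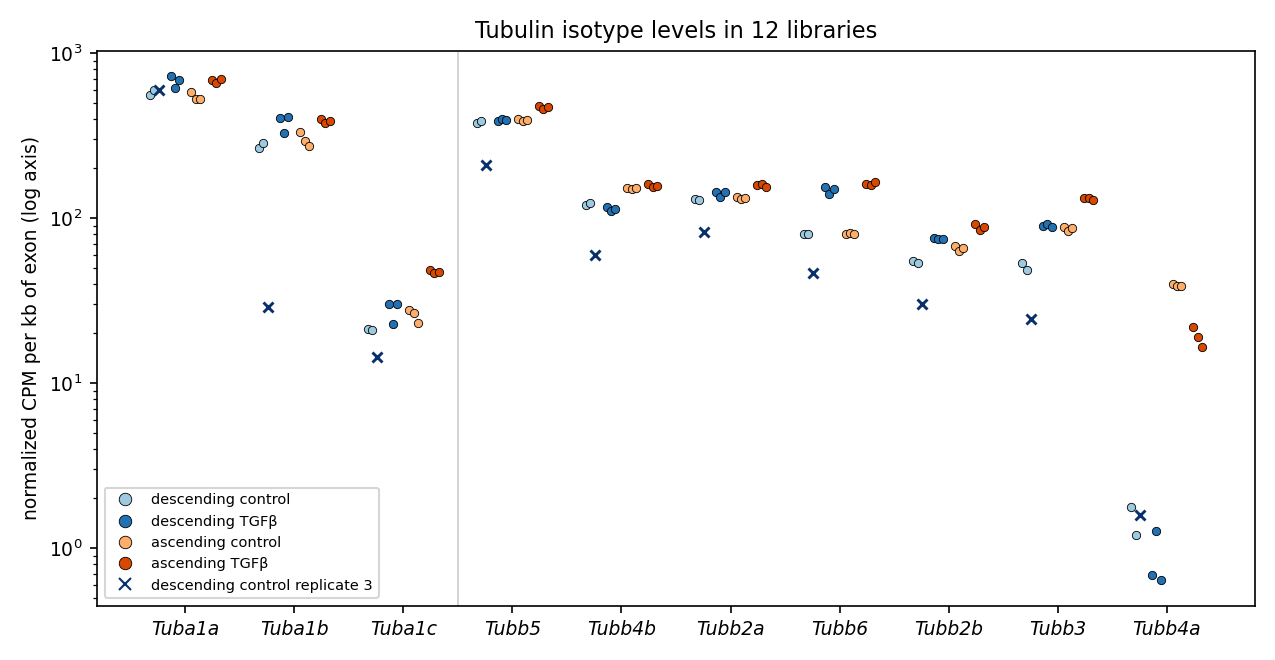
Level of the 10 isotypes (x axis, α isotypes left of the line) in normalized CPM per kb of exon (y axis, log scale) in each of the 12 libraries, coloured by group, with a cross for descending control replicate 3. Tubb4a is the gene with the widest gap between the sites, with means of 39.2 in ascending control and 1.52 in descending control, and the cross lies below the other descending controls in most isotypes.

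Replicate 3 of descending control was not low in all isotypes. Tuba1b was at 54.4 normalized CPM there, against 499 and 538 in the other descending controls, and Tuba1a at 1071 against 1010 and 1079. Tubb5 was at 694 against 1259 and 1286. Tubb4a, at 3.52, lay between the others. The part that shared reads of these near-identical genes play in the split between Tuba1a and Tuba1b was not tested.

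Most isotypes rose with TGFβ in ascending fibroblasts. Of the 9 isotypes other than Tubb4a, 8 rose, none fell, and Tubb4b did not pass the test, where 55.8% of the 13917 genes tested were called, 28.2% as higher and 27.6% as lower. Among these 9, Tubb6 changed most, followed by Tuba1c and Tubb3. The median log2 fold change was 0.34 over the 10 isotypes and -0.0044 over all genes tested.

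Tubb6 was at 194, 199 and 196 normalized CPM in ascending control and 395, 389 and 401 in ascending TGFβ libraries. Every TGFβ library lay above every control, with a log2 fold change of 1.00 (SE 0.03, adjusted p = 4.57e-14 by edgeR's quasi-likelihood test). Tuba1c went from 63.4, 60.5 and 52.9 to 110.4, 107 and 107, which was a log2 fold change of 0.87 (SE 0.06, adjusted p = 7.48e-10). Tubb3, the β isotype typical of neurons, went from 165, 156 and 163 to 247, 248 and 242, a log2 fold change of 0.60 (SE 0.03, adjusted p = 1.44e-10). In these 3 genes the groups did not overlap, and neither Tubb3 nor Tubb6 shares 50-base stretches with another gene.

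The other 5 isotypes that rose did so by less. The log2 fold change was 0.43 for Tubb2b (SE 0.04, adjusted p = 9.94e-08), 0.37 for Tuba1b (SE 0.05, adjusted p = 7.52e-06), 0.32 for Tuba1a (SE 0.04, adjusted p = 7.71e-07), 0.26 for Tubb2a (SE 0.03, adjusted p = 2.81e-06) and 0.25 for Tubb5 (SE 0.03, adjusted p = 3.46e-07). For Tubb5 the levels were 1322, 1289 and 1300.4 normalized CPM in control and 1584, 1516 and 1575 in TGFβ libraries. Tubb4b was at 319.5, 314 and 318 in control and 334, 324 and 326 in TGFβ libraries, with a log2 fold change of 0.04 (SE 0.03, adjusted p = 0.225), which turned to -0.07 when counts were scaled by library totals alone. That scaling moved the median of all genes by -0.11, and the 8 isotypes stayed past the threshold under it. In one fit of all 12 libraries, which shares the spread of descending control replicate 3, Tubb5, Tubb2a, Tubb2b, Tubb3 and Tuba1b were not past the threshold (adjusted p of 0.0912 to 0.791).

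Smooth muscle markers, which TGFβ is known to raise in fibroblasts, summed to 1593 to 1706 normalized CPM in ascending control and 5140 to 5228 in ascending TGFβ libraries. Most of this was Acta2, at 1424 to 1542 and 4895 to 4986 normalized CPM. Of the 8 markers, 6 rose and 2 fell, Myh11 (-0.63, SE 0.10, adjusted p = 5.25e-05) and Des (-1.35, SE 0.28, adjusted p = 0.000542), where 28.2% of all genes rose and 27.6% fell. Of 20 cell cycle genes, 1 rose (Mcm6, log2 fold change 0.34) and 8 fell in ascending fibroblasts with TGFβ, read against the same shares of all genes, with a median of -0.12. The largest falls were of Cenpf (-0.64), Aurkb (-0.38) and Ccnb1 (-0.33), which act in mitosis, where tubulin forms the spindle. The part of these changes in the isotype levels was not tested.

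**Figure D3:**
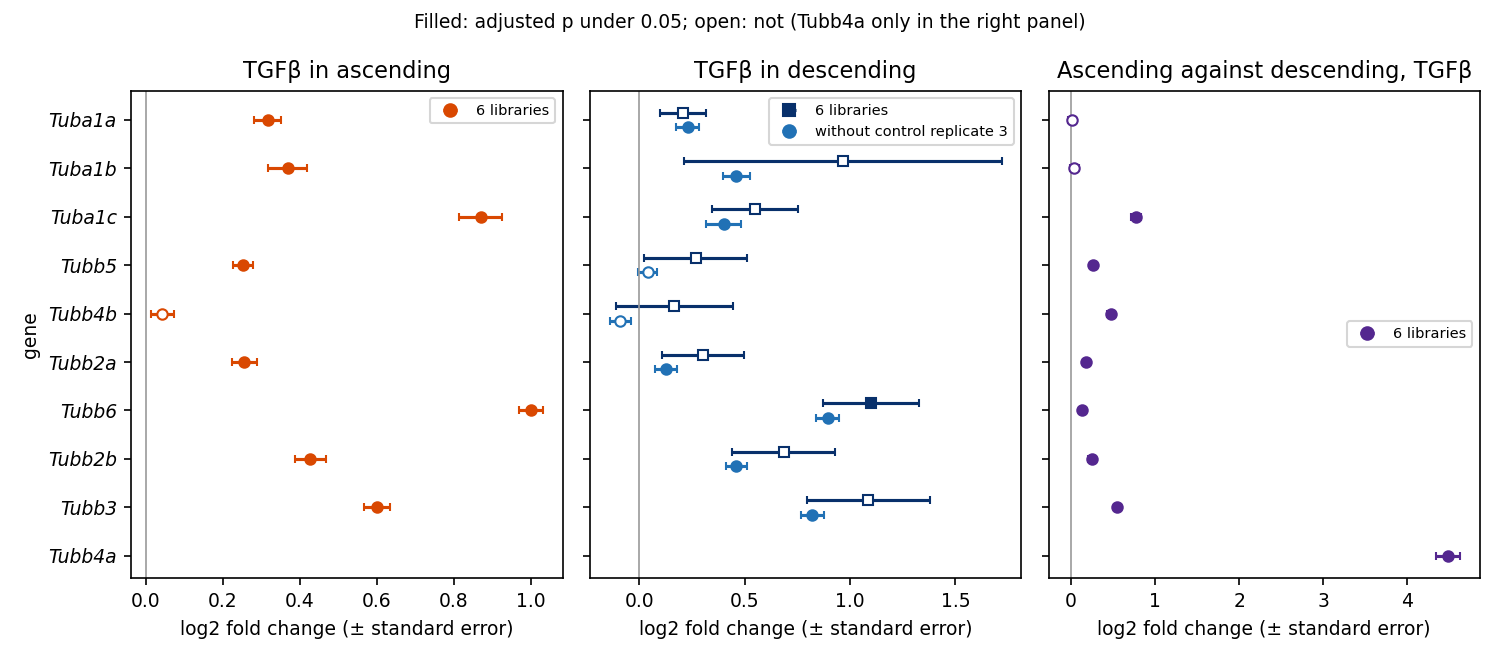
Log2 fold change ± SE (x axes, own scale in each panel) of the isotypes (y axis) with TGFβ in ascending (left) and descending fibroblasts (middle, with 6 libraries as squares and without control replicate 3 as circles), and of ascending against descending under TGFβ (right), with filled symbols for an adjusted p under 0.05 and Tubb4a only where it was tested. Tubb6 is at 1.00 on the left and 1.10 and 0.89 in the middle, Tubb4b is open in both with a sign that changes with the scaling on the left and with the library in the middle, and Tubb4a is at 4.49 on the right.

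In descending fibroblasts the response depended on descending control replicate 3. With all 6 libraries, edgeR called 1 of the 9 isotypes other than Tubb4a, Tubb6, which rose, where 8.07% of 13825 genes were called, 3.59% as higher and 4.48% as lower. DESeq2 called 2 of the 9, Tubb6 and Tubb3, both higher, and one edgeR fit of 12 libraries also called Tubb3, Tubb2b and Tuba1c (adjusted p = 0.00462, 0.0192 and 0.0269). Without replicate 3, 7 of the 9 rose (Tubb6, Tubb3, Tubb2b, Tubb2a, Tuba1a, Tuba1b and Tuba1c) and none fell, where 52.9% of 14311 genes were called, 26.6% as higher and 26.3% as lower. The median over the 10 isotypes was 0.43 with and 0.32 without the library, and over all genes tested 0.021 and -0.012.

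Tubb6 was at 194, 195 and, in replicate 3, 114 normalized CPM in control, and at 374, 340.0 and 367 in TGFβ libraries. All TGFβ libraries were above all controls. The log2 fold change was 1.10 (SE 0.23, adjusted p = 0.0404) with and 0.89 (SE 0.05, adjusted p = 6.75e-15) without replicate 3. The call with 6 libraries was lost when any of the other 5 libraries was left out (adjusted p of 0.0866 to 0.184) and under scaling by library totals (adjusted p = 0.108).

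Tubb3 was at 99.996, 90.1 and, in replicate 3, 45.7 normalized CPM in control, and at 168, 171 and 165 in TGFβ libraries. Its groups did not overlap with or without replicate 3. The log2 fold change was 1.09 (SE 0.29, adjusted p = 0.0853 in edgeR, 0.0104 in DESeq2) with that library and 0.82 (SE 0.06, adjusted p = 1.79e-13) without it. Tuba1c was at 48.5, 47.7 and 32.9 in control and 68.5, 52.5 and 68.9 in TGFβ libraries, with log2 fold changes of 0.55 (SE 0.21, adjusted p = 0.177) with and 0.40 (SE 0.08, adjusted p = 0.000145) without replicate 3. TGFβ replicate 2 was the lowest of its group in Tuba1c, as it was in Tuba1a and Tuba1b.

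Without replicate 3, the log2 fold change was 0.46 for Tubb2b (SE 0.05, adjusted p = 7.33e-09), 0.46 for Tuba1b (SE 0.07, adjusted p = 7.46e-07), 0.23 for Tuba1a (SE 0.06, adjusted p = 0.000832) and 0.13 for Tubb2a (SE 0.05, adjusted p = 0.0381). The Tubb2a call was lost with the replicate number as a block (0.11, adjusted p = 0.117) and kept in DESeq2 (adjusted p = 0.026). With all 6 libraries these were 0.68 (adjusted p = 0.159), 0.96 (0.492), 0.21 (0.324) and 0.30 (0.408) in the same order. Tubb5 and Tubb4b did not pass the test either way. For Tubb5 the values were 0.27 (adjusted p = 0.556) and 0.04 (0.494), and for Tubb4b 0.17 (0.761) and -0.09 (0.127) with and without the library. Cell cycle genes fell in 9 of 20 cases with all 6 libraries (median -0.97), where 4.48% of all genes fell, and in 19 of 20 without replicate 3 (median -0.99), where 26.3% did. The 8 smooth muscle markers summed to 2527 to 2568 normalized CPM in descending control and 8041 to 8457 with TGFβ, and 3 rose and none fell with all 6 libraries, while 7 rose and 1 fell without replicate 3, where 3.59% and 26.6% of all genes rose. The part of these changes in the isotype levels was not tested.

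Under TGFβ, Tubb4a and 7 of the 9 other isotypes were higher in ascending than in descending fibroblasts and none was lower, where 36.3% of 13678 genes tested were called, 18.1% as higher and 18.2% as lower. Descending control replicate 3 takes no part in this comparison. After Tubb4a, the largest differences were those of Tuba1c, Tubb3 and Tubb4b. The median was 0.25 over the 10 isotypes and 0.0024 over all genes.

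Tuba1c was at 110.4, 107 and 107 normalized CPM in ascending and 68.5, 52.5 and 68.9 in descending TGFβ libraries, a log2 fold change of 0.77 (SE 0.06, adjusted p = 5.33e-11). Tubb3 was at 247, 248 and 242 against 168, 171 and 165, a log2 fold change of 0.55 (SE 0.04, adjusted p = 1.04e-12). Tubb4b was at 334, 324 and 326 against 243, 230.2 and 238, a log2 fold change of 0.47 (SE 0.04, adjusted p = 2.82e-11). In all 3, every ascending library was above every descending library.

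The smaller differences were 0.26 for Tubb5 (SE 0.03, adjusted p = 3.57e-07), 0.24 for Tubb2b (SE 0.04, adjusted p = 1.61e-05), 0.17 for Tubb2a (SE 0.04, adjusted p = 0.000751) and 0.13 for Tubb6 (SE 0.04, adjusted p = 0.00799). The call for Tubb6 was lost without descending TGFβ replicate 2 (0.09, adjusted p = 0.0525). Tuba1a, at 0.01 (SE 0.04, adjusted p = 0.897), and Tuba1b, at 0.03 (SE 0.05, adjusted p = 0.666), did not pass the test, and their groups overlapped. When all 12 libraries entered one fit, the calls of Tubb4a and Tuba1c were kept and those of the other 6 isotypes were not (adjusted p of 0.215 to 0.96).

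All 20 cell cycle genes were higher in ascending than in descending TGFβ libraries, where 18.1% of all genes were, with a median log2 fold change of 0.93 and the largest values in Aurkb (1.43), Bub1 (1.18) and Plk1 (1.14), all kinases of mitosis. Their summed level was 491 to 546 normalized CPM in ascending and 269.6 to 315 in descending TGFβ libraries. The neuron markers summed to 117 to 127 in ascending and 86.8 to 98.3 in descending TGFβ libraries, most of it Uchl1. Of the 8 smooth muscle markers, 6 were lower in ascending TGFβ libraries and none higher (median -0.47), with sums of 5140 to 5228 against 8041 to 8457 normalized CPM, where 18.2% of all genes were lower. The part of these genes in the isotype levels was not tested.

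In control, the contrast the isotypes were chosen on, the values are a description. Without replicate 3, the log2 fold change of ascending against descending was 4.72 for Tubb4a, 0.77 for Tubb3, 0.34 for Tubb4b, 0.31 for Tuba1c, 0.28 for Tubb2b, 0.13 for Tuba1b, 0.05 for Tubb5 and Tubb2a, 0.03 for Tubb6 and -0.08 for Tuba1a. With replicate 3 it was 4.69 for Tubb4a, 1.04 for Tubb3, 0.60 for Tubb4b, 0.46 for Tuba1c, 0.51 for Tubb2b, 0.64 for Tuba1b, 0.28 for Tubb5, 0.22 for Tubb2a, 0.24 for Tubb6 and -0.10 for Tuba1a. Tubb3 was at 165, 156 and 163 normalized CPM in ascending control, above the 45.7 to 99.996 of descending control. Tubb4b was at 314 to 319.5 in ascending against 125 to 257 in descending control, without overlap. Of all genes, 2.65% were called in this contrast with replicate 3 and 31.6% without it.

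Whether the response to TGFβ differed between the sites was tested with the interaction of site and treatment over the 12 libraries, in which 0.806% of 14637 genes were called, 0.321% as higher and 0.485% as lower. None of the 9 isotypes other than Tubb4a was called by edgeR or by DESeq2, and none had an unadjusted p under 0.05 in edgeR. The values with the lowest adjusted p were those of Tubb3 (-0.49, SE 0.31, adjusted p = 0.578) and Tuba1c (0.32, SE 0.22, adjusted p = 0.601). Without descending control replicate 3, 3 of the 9 isotypes were called, where 13.5% of 15013 genes were, 6.07% as higher and 7.4% as lower.

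These were Tubb5 at 0.22 (SE 0.05, adjusted p = 0.00155) and Tuba1c at 0.47 (SE 0.11, adjusted p = 0.00473), whose change was more positive in ascending fibroblasts, and Tubb3 at -0.22 (SE 0.06, adjusted p = 0.0202), whose rise on the log2 scale was larger in descending fibroblasts. Mean Tubb3 was 95.0 normalized CPM in the 2 descending controls and 168 with TGFβ, against 161 and 245 at the ascending site. Mean Tubb5 was 1272 and 1305 against 1304 and 1558, and mean Tuba1c 48.1 and 63.3 against 58.9 and 108. For the other 6 isotypes the adjusted p was 0.0864 to 0.835 without replicate 3. The lowest was that of Tubb4b (0.14, SE 0.05). The call of these 3 isotypes therefore depends on 1 library.

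The make-up of the β-tubulin RNA is described by shares. Shares were taken of the summed level per length of the 7 β isotypes, and no test was made, since 3 against 3 libraries cannot go below p = 0.10 in an exact test. Tubb5 held the largest share in each group, 41.4% ± 0.122 in ascending control, 39.5% ± 0.49 with TGFβ, 46.4% ± 0.586 in descending control (46.7% without replicate 3) and 40.9% ± 0.943 with TGFβ (SD, n = 3). Tubb6 held 8.52% ± 0.216, 13.7% ± 0.223, 9.91% ± 0.304 (9.74% without replicate 3) and 15.4% ± 0.617 in the same order, higher in every TGFβ library than in every control library. The share of Tubb3 was 9.11% ± 0.171, 11.1% ± 0.223, 5.94% ± 0.581 (6.21% without replicate 3) and 9.36% ± 0.269.

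Tubb4a made up 4.13% ± 0.043 of β-tubulin RNA in ascending control and 1.61% ± 0.206 in ascending TGFβ, against 0.237% ± 0.102 in descending control (0.181% without replicate 3) and 0.09% ± 0.038 in descending TGFβ (SD, n = 3). Scaled by the longest transcript in place of all exons, the ascending shares were 3.47% and 1.34%. The share of Tubb4b was 14.3% ± 0.936 (14.8% without replicate 3) and 16% ± 0.07 in descending and ascending control, and 11.8% ± 0.222 and 13.3% ± 0.064 with TGFβ, lower with TGFβ at both sites. Tubb2a and Tubb2b, which share reads, held 13.9% and 6.9% in ascending control, 13.4% and 7.45% with TGFβ, 16.6% and 6.63% in descending control (15.8% and 6.64% without replicate 3) and 14.6% and 7.79% with TGFβ.

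**Figure D4:**
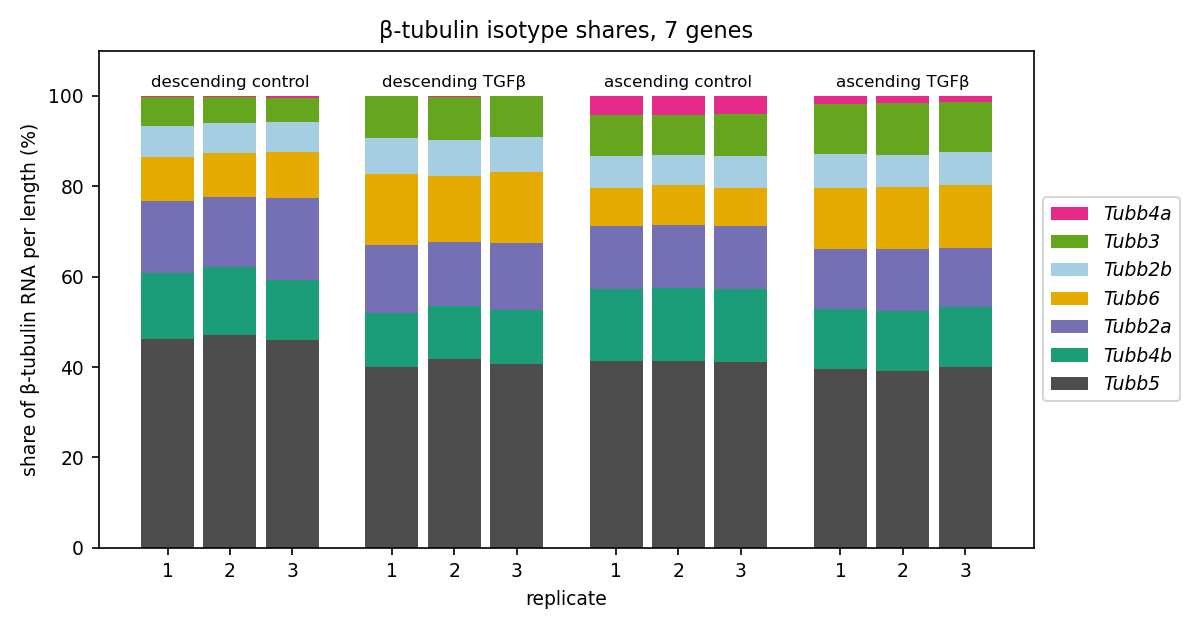
Share of each of the 7 β isotypes in the summed β-tubulin level per length (y axis, %) in each of the 12 libraries (x axis, replicates 1 to 3 of the 4 groups). Tubb4a is visible in the ascending libraries, with means of 4.13% in control and 1.61% in TGFβ, and Tubb6 holds 15.4% and 13.7% in descending and ascending TGFβ libraries against 9.91% and 8.52% in the controls.

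Among the α isotypes, Tuba1a held 62.7% ± 1.07 in ascending control, 61% ± 0.57 in ascending TGFβ and 62.5% ± 1.42 in descending TGFβ. In descending control it was 75.1% ± 15.7 with all 3 libraries and 66.1% without replicate 3, which itself had 93.2%. Tuba1c held 2.96% ± 0.15 in ascending control and 4.23% ± 0.089 in ascending TGFβ, and 2.35% ± 0.133 (2.4% without replicate 3) and 2.54% ± 0.154 in descending control and TGFβ. The sum of the β isotypes was 948 ± 12.3 CPM per kb in ascending control and 1185 ± 17.9 in ascending TGFβ, and that of the α isotypes 870 ± 61.4 and 1117 ± 28.1 (SD, n = 3). In descending fibroblasts the β sum was 698 ± 211 in control (819 without replicate 3) and 959.7 ± 9.76 in TGFβ, and the α sum 797 ± 141 (877 without replicate 3) and 1085 ± 103.

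Of 10 other tubulin genes looked up, Tuba3a, Tuba3b and Tubal3 had no counts and Tuba8 and Tubb1 at most 1 in any library. Tuba4a, a further α isotype, was at 17.6, 16.2 and 16.9 normalized CPM in ascending control and 35.1, 37.9 and 36.8 in ascending TGFβ, a log2 fold change of 1.11 (SE 0.06, adjusted p = 1.38e-10). In descending fibroblasts it was at 16.9, 17.5 and, in replicate 3, 7.10 in control and 39.5, 42.8 and 37.0 in TGFβ, with 1.51 (SE 0.35, adjusted p = 0.0541 in edgeR, 0.000981 in DESeq2) with and 1.21 (SE 0.08, adjusted p = 2.82e-13) without replicate 3. Under TGFβ the sites did not differ past the threshold (-0.11, SE 0.06, adjusted p = 0.162). Tubg1, the γ-tubulin that starts new microtubules, rose with TGFβ in ascending fibroblasts in edgeR (0.18, SE 0.07, adjusted p = 0.0425) but was not called by DESeq2 (adjusted p = 0.111), and was higher in ascending TGFβ than in descending TGFβ cultures (0.27, SE 0.07, adjusted p = 0.00293). Tubg2, Tubd1 and Tube1 were not called in the 4 tested comparisons, with or without descending control replicate 3.

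New tubulin chains are folded by prefoldin, the CCT chaperonin ring and the tubulin cofactors. Of 22 such genes tested, 12 rose and 4 fell with TGFβ in ascending fibroblasts, with a median log2 fold change of 0.14, where 28.2% of all genes rose and 27.6% fell. DESeq2 called 12 of the 22, 10 of them higher. The largest rises were of the prefoldin subunit Pfdn4 (0.59, SE 0.07, adjusted p = 1.09e-06) and the CCT subunits Cct3 (0.56, SE 0.03, adjusted p = 3.43e-10) and Cct2 (0.46, SE 0.03, adjusted p = 7.4e-10), and the falls were led by Tbcel (-0.47), which takes tubulin dimers apart, Ttc5 (-0.20), which brings about decay of tubulin mRNA when free tubulin is in excess, and Pfdn5 (-0.15). In descending fibroblasts none of the 22 was called by edgeR with all 6 libraries (4 at an unadjusted p under 0.05, 2 by DESeq2), and 11 rose and 1 fell without replicate 3, where 26.6% and 26.3% of all genes did. Under TGFβ, 4 of 22 were higher in ascending fibroblasts, close to the 18.1% of all genes, and none was lower, where 18.2% of all genes were. The 4 were led by Tcp1 (0.18), Vbp1 (0.17) and Cct4 (0.15).

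Of 20 genes that modify tubulin tested in ascending fibroblasts, 6 rose and 6 fell with TGFβ, close to the 28.2% and 27.6% of all genes, and DESeq2 called 8 of them in place of 12. Most of the 20 encode enzymes that act on the tails, and the others are their partners Tpgs1, Tpgs2 and Svbp and the acetyltransferase and deacetylases Atat1, Hdac6 and Sirt2, which act on a lysine outside the tail. Those that rose were led by the glutamate ligases Ttll7 (0.67, SE 0.07, adjusted p = 7.2e-07), Ttll4 (0.59) and Ttll5 (0.48), and those that fell by the deglutamylase Agbl3 (-0.70, SE 0.19, adjusted p = 0.00413), the ligase Ttll1 (-0.37) and its partner Tpgs1 (-0.24). Ttll7, which prefers β-tubulin, also rose in descending fibroblasts with all 6 libraries (0.86, SE 0.14, adjusted p = 0.0175), the only 1 of 19 called there. Without replicate 3, 5 of the 19 rose, led by Ttll7 (0.90, SE 0.10, adjusted p = 3.18e-09), Ttll4 (0.61) and Ttll5 (0.48), and 5 fell, led by Agbl3 (-0.76), Agbl2 (-0.65) and Ttll1 (-0.34), close to the 26.6% and 26.3% of all genes. Under TGFβ, where 18.1% of all genes were higher and 18.2% lower, 6 of 19 were higher in ascending fibroblasts, led by Agbl2 (0.83), Ttll7 (0.78) and Tpgs2 (0.42), and 2 were lower, Ttl (-0.30), which puts back the final tyrosine of α-tubulin, and the deglutamylase Agtpbp1 (-0.16).

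Among proteins that bind microtubules, 11 of 31 tested rose and 11 fell with TGFβ in ascending fibroblasts, where 28.2% and 27.6% of all genes did. The largest rises were of Tppp (2.35, SE 0.38, adjusted p = 6.16e-05), Mtus1 (2.24, SE 0.12, adjusted p = 5.32e-11) and Map2 (1.52, SE 0.04, adjusted p = 2.53e-15), and the largest falls of the destabilizer Stmn2 (-1.97, SE 0.11, adjusted p = 1.87e-10), Dclk1 (-1.51) and the minus-end binder Camsap3 (-1.29). Tppp was near the floor in ascending control, with 4, 7 and 7 counts against 22, 32 and 36 with TGFβ. It passed the filter on low counts only through the TGFβ libraries. In descending fibroblasts 4 of 32 rose and 4 fell with all 6 libraries, where 3.59% and 4.48% of all genes did, led by Map2 (2.43, SE 0.12, adjusted p = 0.000905), Mtus1 (2.40) and Map6 (1.13) and by Camsap3 (-2.58), Stmn1 (-1.76) and Mapre2 (-1.53). Without replicate 3, 10 rose and 10 fell, where 26.6% and 26.3% of all genes did, led by Mtus1 (2.57), Tppp (2.57) and Map2 (2.46) and by Camsap3 (-2.33), Stmn1 (-1.72) and Mapre2 (-1.39). Tppp had 13 and 9 counts in these descending controls and 59, 50 and 50 with TGFβ. The interaction was called for 3 of the 32 over the 12 libraries (0.806% of all genes), Stmn1 (0.98, SE 0.15, adjusted p = 0.0182), Map2 (-0.91, SE 0.11, adjusted p = 0.0054) and Map6 (-0.55, SE 0.10, adjusted p = 0.0325). Map2 and Map6, stabilizers best known from neurons, had the more positive log2 fold change in descending fibroblasts. Without replicate 3, 3 of the 32 had a more positive interaction, Stmn1 (0.95), Clasp2 (0.27) and Clip2 (0.24), and 7 a more negative one, led by Stmn2 (-1.43, SE 0.25, adjusted p = 0.000187), Map2 (-0.94) and Dclk1 (-0.66, SE 0.06, adjusted p = 7.37e-08), where 13.5% of all genes were called. Under TGFβ, where 18.1% of all genes were higher and 18.2% lower, 8 were higher in ascending fibroblasts, led by Camsap3 (1.77), Stmn1 (1.24) and Stmn2 (1.03), and 8 lower, led by Mapt (-1.69), Mtus1 (-0.90) and Tppp (-0.86). Mapt had only 10, 7 and 7 counts in ascending and 18, 39 and 19 in descending TGFβ libraries, and passed the filter on low counts through the descending ones. Camsap3 had 43, 42 and 38 counts in ascending and 7, 15 and 13 in descending TGFβ libraries.

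Of 10 genes of the γ-tubulin ring complex, which seeds microtubules, 3 rose and 2 fell with TGFβ in ascending fibroblasts, with log2 fold changes of 0.23 for Mzt1, 0.22 for Tubgcp5, 0.18 for Tubg1, -0.47 for Mzt2 and -0.22 for Tubgcp6. This is close to the 55.8% of all genes that were called, and DESeq2 called 2 of the 10. In descending fibroblasts none was called by edgeR with all 6 libraries (1 at an unadjusted p under 0.05, 0 by DESeq2), and without replicate 3 none rose and 3 fell, where 26.6% of all genes rose and 26.3% fell. Under TGFβ, where 18.1% of all genes were higher and 18.2% lower, 3 were higher in ascending fibroblasts, Tubg1 (0.27), Tubgcp2 (0.23) and Mzt1 (0.17), and none lower.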

How the data were processed

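RNA was measured in 12 libraries, whose site and treatment were taken from the sample labels. Paired-end reads had been aligned to mm10 by the authors, who deposited raw featureCounts counts for each gene symbol. The submitters' processing notes also list FastQC, STAR and DESeq2. Versions, the annotation, the strand setting and the treatment of reads that match several genes are not given in the sources used here. The labels put all libraries in the same batch.

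The 10 isotypes, the gene lists and the tests were chosen with earlier results of these data known. All isotypes were named, and of the other lists up to 3 called genes per direction with the largest log2 fold change. Tests on the counts were made with edgeR 4.0.16 under R 4.3.3 (two-sided quasi-likelihood F-test, TMM, filterByExpr at min.count 10 and min.total.count 15, fitted on the groups compared). P-values were adjusted by Benjamini-Hochberg over all genes tested, and genes were called at an adjusted p under 0.05. SE is the size of the log2 fold change divided by the square root of F. Positive values mean higher with TGFβ, higher in ascending, or a more positive TGFβ change in ascending fibroblasts. Levels per length used the union of exons of GENCODE vM21 (GRCm38). Log2 CPM used a prior count of 2. With 3 libraries a group, the smallest p of an exact permutation test is 0.10, so shares carry no test. The fits were also run on simulated counts with the same dispersion for every gene and no library that stands apart. That setting is unlike these data.

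The alternatives were DESeq2 1.42.0, DESeq2's size factors in edgeR, library totals without TMM, no filter, at least 10 counts in every library, the replicate number as a block, one fit of 12 libraries, each library left out, other lengths for the shares, and, chosen after seeing the data, DESeq2 and the block without descending control replicate 3.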

Additional observations from a re-analysis of the deposited data

Results flagged for a closer look

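The difference between the TGFβ changes of ascending and descending fibroblasts, tested as an interaction in edgeR without descending control replicate 3, passed the threshold for 3 isotypes. It was 0.22 for Tubb5 (SE 0.05, adjusted p = 0.00155), 0.47 for Tuba1c (SE 0.11, adjusted p = 0.00473) and -0.22 for Tubb3 (SE 0.06, adjusted p = 0.0202). With all 12 libraries the values were -0.02 (adjusted p = 0.978), 0.32 (adjusted p = 0.601) and -0.49 (adjusted p = 0.578) in the same order. Of the 15013 genes tested without that library, 13.5% were called. No group of 3 libraries was tested for a sample far from the others.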

How the results depend on the processing

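Tubb4a remained higher in ascending fibroblasts under TGFβ in all 13 alternatives, with log2 fold changes of 4.30 to 4.85 (adjusted p up to 2.84e-06), and the control value ranged from 4.55 to 4.83. The number of genes called with TGFβ in ascending fibroblasts, 7767, fell to 2338 in one fit of 12 libraries and was 7146 to 7427 with each library left out. In descending fibroblasts 1115 genes were called, 2242 by DESeq2, 3570 in one fit of 12 libraries, and 213 to 7576 with each library left out, the 7576 without control replicate 3. Without that library DESeq2 called 6169. For site under TGFβ, 4963 became 1106 in one fit of 12 libraries and 4340 to 4656 with each library left out. The interaction count of 118 was 419 by DESeq2, 56 without a filter, 25 to 2022 with each library left out and 1732 by DESeq2 without control replicate 3. The interaction of Tubb5 (-0.02) turned to 0.22 in edgeR and 0.20 in DESeq2 without that library, and it was -0.16 to 0.22 with each library left out. The causes were not tested. The Tubb4a share of 4.13% in ascending control was 3.47% by the longest transcript and 3.59% as a share of counts, and that of 1.61% with TGFβ was 1.34% by the longest transcript. Scaling by library totals moved the median of all genes by -0.11 for TGFβ in ascending and -0.10 in descending fibroblasts. Depth limits the descending level of Tubb4a, which rests on 30 to 101 counts a library.

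Of 18 same-numbered pairs of libraries, none had a correlation of deviations from the group mean above 0.1 (-0.026 to 0.0878, median 0.0085). The median for pairs with other numbers was -0.0078, and 6 of 12 libraries correlated best with their own number. Since each deviation is taken from a mean of 3 libraries, these values cannot tell whether same-numbered libraries share animals. With the replicate number as a block, 95 genes were called in descending fibroblasts and 50 for the interaction, and without control replicate 3 these were 7168 and 2024, with Tubb5 at 0.22. Tubb6 in descending fibroblasts was then at 1.14 (adjusted p = 0.14) with all 6 libraries.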

Other observations

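Of the other isotypes, Tubb4b varied most like Tubb4a across libraries, but it ranked only 768 among the 14636 genes ordered by r. Within ascending fibroblasts they did not move together. With TGFβ, Tubb4a lay below its controls, while Tubb4b lay slightly above its controls without passing the test. Pearson's r with Tubb4a on log2 CPM was 0.676 for Tubb4b, 0.474 for Tubb3 and 0.433 for Tuba1c, and it was lowest for Tubb6 (-0.021) and Tuba1a (-0.356). Without descending control replicate 3, r of Tubb4b was 0.948. These values describe 12 libraries that share sites and treatments and carry no p.

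The 10 isotypes took 0.43% of all counts in ascending control, 0.50% with TGFβ, 0.339% in descending control (0.404% without replicate 3) and 0.423% with TGFβ. The ratio of the summed α to the summed β level per length was 0.918 ± 0.057 in ascending control and 0.943 ± 0.015 in ascending TGFβ (SD, n = 3), and 1.13 ± 0.097 in descending TGFβ. In descending control it was 1.18 ± 0.195 with all 3 libraries and 1.07 without replicate 3, which itself was at 1.4. Since the α isotypes share most of their sequence with other genes, this ratio depends on how shared reads were counted.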
